A study of Homo sapiens with 20 samples.

Results

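Eph receptors and ephrins were examined in NTERT keratinocytes that carried or lacked the kinase GCN2, before and after wounding. The 10 genes were taken by name, through their Ensembl identifiers, out of the 57500 genes counted in every library. They are the A-class receptors EPHA1, EPHA2 and EPHA4, the B-class receptors EPHB2, EPHB3 and EPHB4, the A-class ephrins EFNA1 and EFNA5, and the B-class ephrins EFNB1 and EFNB2. All 10 passed the filter on low counts in every comparison.

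NTERT cells are human keratinocytes immortalized with telomerase, which differentiate into epithelial sheets in culture. The study sequenced total RNA from 20 libraries in 4 groups of 5, WT and GCN2KO cells left unwounded or subjected to HDW. HDW, or high-density wounding, is a grid of parallel scratches that brings many cells close to a wound edge, and RNA was taken 6 h after it. The comparisons address how loss of GCN2 and wounding change transcript levels during collective migration of keratinocytes. Cells were maintained in low calcium medium with keratinocyte growth supplement. For the wounding assay, confluent cells were first differentiated in medium with 2% serum and 2 mM calcium chloride. The study's methods give 36 h for this step, and its results text gives a longer time. The methods give this step for the assay and do not describe unwounded wells apart. WT cells had received a control guide RNA, whereas GCN2KO cells were an early-passage pool edited with CRISPR/Cas9 at EIF2AK4, the gene that encodes GCN2. The knockout is therefore a mixture of edited alleles and not a clone. The study's statistics describe n as biological replicates, but neither its methods nor the labels say what separated the 5 cultures of a group, and p-values measure the spread between these libraries. In bulk RNA, fewer cells that express a gene and less RNA per cell cannot be told apart.

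Eph proteins are the largest family of receptor tyrosine kinases, and their ligands, the ephrins, sit on the surface of neighboring cells. A-class ephrins are held in the membrane by a lipid anchor and mainly bind A-class receptors, whereas B-class ephrins span the membrane and mainly bind B-class receptors, and EPHA4 binds both classes. Contact signals forward into the receptor cell and in reverse into the ephrin cell, and by acting on the actin cytoskeleton and adhesion it drives repulsion, boundary formation and cell sorting. In epidermis, EPHA2 is the best studied member, with EFNA1 as its main ligand at cell contacts, and ephrin signaling is known to act in keratinocyte migration and wound closure.

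The libraries held 14083504 to 34611570 counts, with a median of 23685751 in WT unwounded and 33981257 to 34209033 in the other 3 groups. EIF2AK4 gave 3980.5 to 4555 normalized read counts in WT libraries and 806 to 962 in GCN2KO libraries, so every library matched its genotype label. Normalized read counts are counts divided by the library's TMM effective size relative to the mean of all 20 libraries. All 6 markers of basal keratinocytes were present in every library, with KRT5 at 7848 to 13968 CPM (counts scaled to TMM library size). The summed level of 8 differentiation markers was higher in every GCN2KO than in every WT library, largely through IVL, the cornified envelope precursor involucrin. Summed markers of other cells ran at 23.3 to 36.3 CPM for 8 fibroblast genes, 1.96 to 3.68 CPM for 5 melanocyte genes and 0.380 to 1.30 CPM for 5 endothelial genes, and the melanocyte gene TYR was at 0 in all libraries. For 5 immune genes the sum was 63.7 to 73.2 CPM in WT unwounded libraries and 22.4 to 50.6 CPM in the other groups, mostly CD14, while PTPRC was at 0 in all libraries but those of GCN2KO unwounded, where it had at most 2 counts. Some libraries stood apart: GCN2KO unwounded replicates 3 and 5 lay 0.253 to 0.337 from replicates 1, 2 and 4 (root mean square log2 difference over expressed genes). Replicates 1, 2 and 4 lay 0.149 to 0.233 from each other, and 3 lay 0.149 from 5. Libraries within the WT groups lay 0.0888 to 0.196 apart, so the GCN2KO unwounded group was the more widely spread even among replicates 1, 2 and 4. GCN2KO HDW replicate 5 lay 0.206 to 0.292 from the other 4 of its group. Calls of members that changed without these libraries are given below both ways. Values for all other genes, and ratios and sums of members, are given with all libraries only.

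In GENCODE 44 annotation of GRCh38, 3 of the receptor genes lie on chromosome 1 or 2: EPHA2 at chr1:16124337-16156069 (minus strand), EPHB2 at chr1:22710839-22921500 (plus strand) and EPHA4 at chr2:221418027-221574202 (minus strand). EPHA1 at chr7:143390289-143408856 and EPHB4 at chr7:100802565-100827523 are both on the minus strand, and EPHB3 at chr3:184561785-184582408 is on the plus strand. Among the ligands, EFNA1 lies at chr1:155127876-155134899 (plus strand), EFNA5 at chr5:107376894-107670937 (minus strand), EFNB1 at chrX:68829021-68842160 (plus strand) and EFNB2 at chr13:106489745-106535662 (minus strand). An antisense gene covers 36.4% of the exonic bases of EFNB2. That antisense gene is not among the genes counted. Whether counting used strand is not given in the sources used here, so any reads from it within EFNB2 exons cannot be told apart from those of EFNB2. The same kind of overlap covers 4.67% of EPHA4, 1.75% of EPHA1, 1.07% of EPHB4 and 0.272% of EPHB2, and none of the other 5 genes.

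EPHA1, EPHA4 and EPHB2, the members whose group means spanned the widest range, are shown by the 250 bases upstream of their RefSeq start (GRCh38.p14), printed 5′ to 3′ on the gene's strand. CG dinucleotides are in capitals, because CG-rich and CG-poor starts are the main textbook classes of mammalian promoter. The windows are chr7:143408857-143409106 (minus strand) for EPHA1, chr2:221574203-221574452 (minus strand) for EPHA4 and chr1:22710588-22710837 (plus strand) for EPHB2.
EPHA1: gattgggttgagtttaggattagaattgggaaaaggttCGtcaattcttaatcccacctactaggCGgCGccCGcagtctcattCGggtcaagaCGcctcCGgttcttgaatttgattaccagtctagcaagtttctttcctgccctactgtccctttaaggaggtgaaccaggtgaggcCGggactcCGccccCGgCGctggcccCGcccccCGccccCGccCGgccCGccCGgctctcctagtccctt
EPHA4: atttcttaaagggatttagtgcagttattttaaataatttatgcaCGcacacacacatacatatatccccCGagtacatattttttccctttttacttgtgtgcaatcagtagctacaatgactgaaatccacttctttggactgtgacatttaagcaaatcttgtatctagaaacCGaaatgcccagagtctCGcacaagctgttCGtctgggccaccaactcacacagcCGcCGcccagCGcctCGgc
EPHB2: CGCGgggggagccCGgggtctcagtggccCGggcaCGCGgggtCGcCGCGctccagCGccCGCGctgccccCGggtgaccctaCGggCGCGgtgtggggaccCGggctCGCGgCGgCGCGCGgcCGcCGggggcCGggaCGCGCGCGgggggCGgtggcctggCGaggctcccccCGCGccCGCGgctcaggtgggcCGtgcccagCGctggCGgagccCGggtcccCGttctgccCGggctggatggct
The printed windows ranged from 9 CG and 43.2% G+C in EPHA4 to 17 CG and 59.2% in EPHA1 and 42 CG and 84.8% in EPHB2. RefSeq promoter windows of 300 bases, reaching 50 bases past the start, were matched for all 10 genes, 12 windows in total because EPHA4 and EPHB2 have 2 each. The windows of EPHA4 differed in composition, with 12 CG and 43.0% G+C in the 300 bases around the start shown and 33 CG and 74.3% in those around its other start, at chr2:221572255-221572554, whereas the windows of EPHB2 were 1 base apart. The AP-1 word TGANTCA, searched on both strands, was in none of these 12 windows and in 7.71% of all 35116 RefSeq windows. The E-box word CACGTG was likewise in none of the 12 and in 7.26% of all windows.

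Levels of different genes were compared per kilobase of exon as RPKM, computed on TMM effective library sizes, and were given as mean ± SD over 5 libraries. In WT unwounded cells the ligand EFNB1 led at 66.5 ± 4.90, followed by EFNA1 at 43.4 ± 1.21, EFNB2 at 39.3 ± 2.64, EPHB4 at 33.0 ± 1.24 and EPHA2 at 32.2 ± 2.04. The remaining members formed a lower tier of 6.60 to 8.69 RPKM. Within these tiers the libraries of EFNA1 and EFNB2 overlapped, as did those of EPHB4 and EPHA2, of EPHA1, EPHB3 and EPHB2 in turn, and of EPHA4 and EFNA5. The order of the most abundant genes differed in the other groups. EPHA2 reached 51.4 ± 1.91 RPKM in WT HDW cells, second to EFNB1 at 62.9 ± 1.35 and overlapping EFNB2 at 48.9 ± 3.58. In GCN2KO unwounded cells EFNB1 (46.7 ± 2.94), EPHA2 (41.2 ± 4.12), EFNB2 (39.1 ± 3.65) and EFNA1 (36.6 ± 5.44) overlapped from each to the next. In GCN2KO HDW cells EPHA2 led at 60.2 ± 3.26 RPKM with no overlap with EFNB2 at 45.4 ± 1.57, and EPHA4 came last at 1.96 ± 0.204. Dividing by the longest transcript in place of all exons exchanged neighbors in this order, such as EFNB2 and EPHB4 in WT unwounded cells, where EPHB4 took the third place at 42.0 RPKM.

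**Figure D1:**
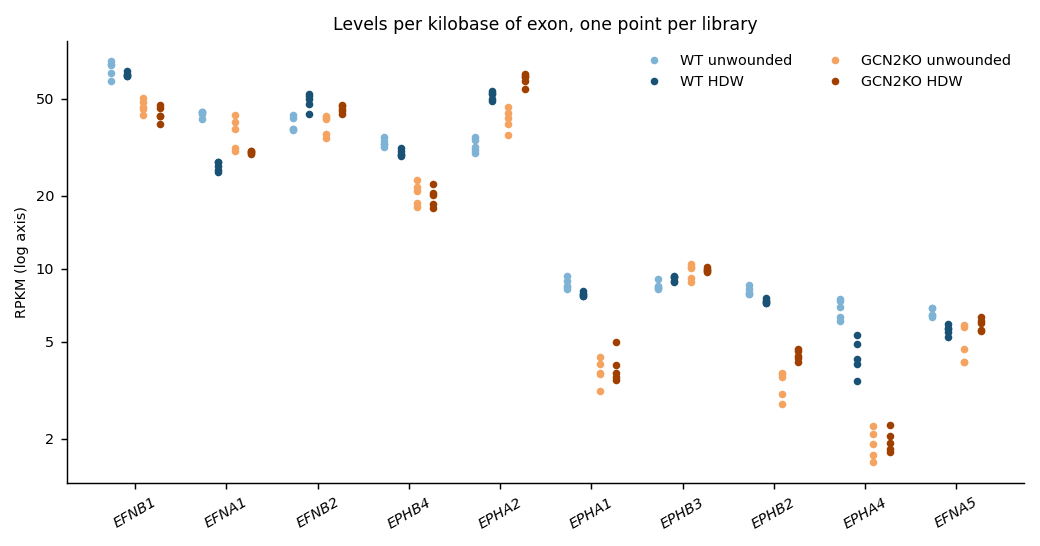
RPKM of the 10 genes on a log axis, 1 point per library and 5 libraries per group, with genes ordered by their WT unwounded mean. EPHA2 rose from a mean of 32.2 RPKM in WT unwounded to 60.2 in GCN2KO HDW, whereas EPHA4 lay near 2 RPKM in both GCN2KO groups against 6.88 in WT unwounded.

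Loss of GCN2 went with lower levels of most receptors and of EFNB1. In unwounded cells 7 of the 10 genes were lower and 2 were higher in GCN2KO than in WT at an edgeR adjusted p of at most 0.05, where 33.1% of all 15348 genes tested were lower and 33.4% higher. EPHA4, EPHB2 and EPHA1 also fell by at least 1 on the log2 scale, the study's threshold for a DE gene, which 8.22% of genes tested met downward and 8.21% upward. The median log2 fold change of the 10 genes was -0.47, beside 0.0042 over all genes. All 5 GCN2KO libraries lay below all 5 WT libraries for 6 of the genes (27.0% of all genes) and above them for EPHA2 (26.3%).

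After HDW, 5 of the 10 genes were lower in GCN2KO cells and 3 were higher, where 35.8% of 15855 genes tested were lower and 35.9% higher. EPHA4 alone met the DE threshold downward and none upward, against 7.83% and 7.10% of genes tested. The same 5 genes lay below WT in every library (29.3% of all genes) and the 3 higher ones, EPHA2, EPHB3 and EFNA1, above it (27.9%). The median log2 fold change of the members was -0.32. EPHA1, EPHA4, EPHB2, EPHB4 and EFNB1 were lower in all 10 GCN2KO libraries than in any of the 10 WT libraries, a separation that 15.5% of 16536 genes showed downward and 14.8% upward. In unwounded cells the downward count of 7 of 10 members was above the share of all genes, and the upward count of 2 was below it. After HDW the counts of 5 and 3 were nearer to those shares and are not read as a direction of the list. No test of the list was made. Keratinocyte markers differed between the genotypes in the same libraries. Summed differentiation markers were at 241 to 327 CPM in WT and 456 to 779 CPM in GCN2KO libraries. That gap lay largely in IVL, at 102 to 169 and 293 to 663 CPM. The other differentiation markers overlapped between genotypes. TGM1 was at 74.0 to 140 CPM in WT and 63.9 to 128 CPM in GCN2KO libraries, and KRT10 at 29.4 to 55.8 and 37.8 to 61.1 CPM. The basal factor TP63 was at 364 to 434 and 267 to 309 CPM, and COL17A1, a collagen of hemidesmosomes, at 2807 to 3167 and 977 to 1420.0 CPM. KRT14, ITGA6 and ITGB4 were likewise lower in GCN2KO libraries. The basal marker KRT5 went the other way, at 7848 to 9857 CPM in WT and 10349 to 13968 CPM in GCN2KO libraries. Summed basal markers overlapped, at 16469 to 19546 and 14215 to 19204 CPM. The part of these markers in the genotype differences was not tested.

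Wounding of WT cells raised 3 of the 10 genes and lowered 6, where 26.1% of 15348 genes tested rose and 25.2% fell. None met the DE threshold, which 2.62% of genes did upward and 1.55% downward. The libraries did not overlap for 2 genes that rose, EPHA2 and EFNB2 (19.2% of all genes), and for 6 that fell (17.7%). In GCN2KO cells HDW raised 3 genes, EPHA2, EPHB2 and EFNB2, and lowered EFNA1, where 11.9% of 15791 genes rose and 10.8% fell. Again none met the DE threshold, which 0.475% of genes did upward and 0.196% downward. The 3 genes that rose did not overlap between groups (7.52% of all genes), and no member lay wholly below (7.65%). The 4 comparisons share their groups pairwise and are not independent of each other.

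**Figure D2:**
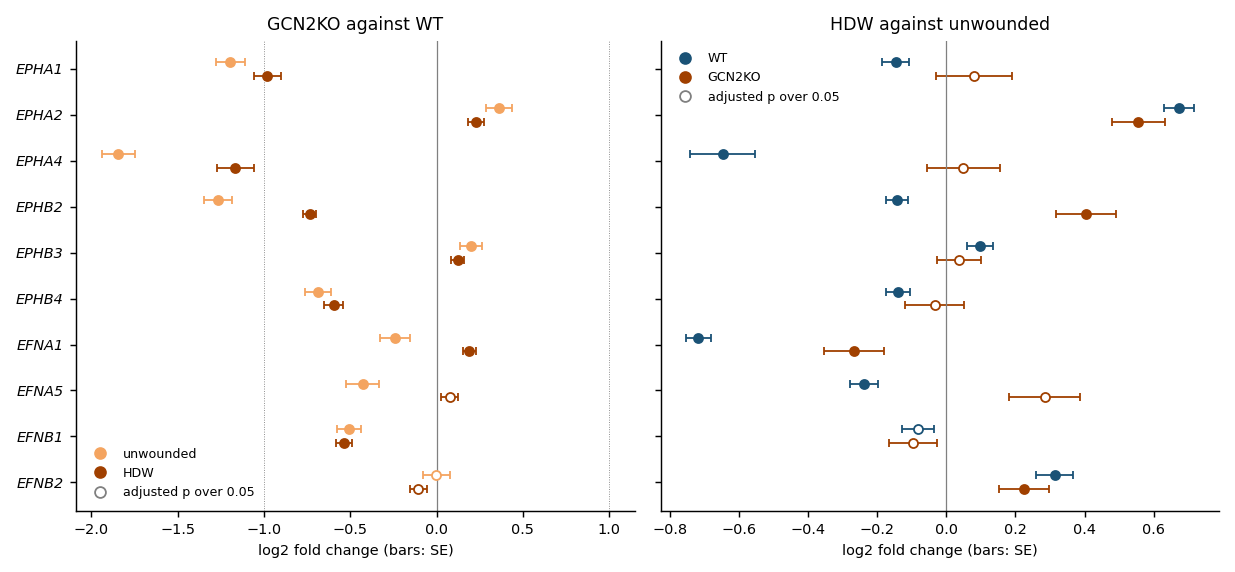
Log2 fold change of each gene (points, bars are SE) for GCN2KO against WT on the left and for HDW against unwounded on the right, with open circles where the edgeR adjusted p was over 0.05 and dotted lines at the DE threshold on the left. EPHA4, EPHB2 and EPHA1 lie farthest to the left in unwounded GCN2KO cells, and EPHA2 is the only gene with a filled point to the right of 0 in all 4 comparisons.

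Of the A-class receptors, EPHA2, the main ephrin-A receptor of epithelia, was higher in GCN2KO cells and after wounding of WT cells, where EPHA1 and EPHA4 were lower. EPHA2 gave 3657, 4026, 3579, 4148 and 3763 normalized read counts in WT unwounded libraries and 5824, 6257, 6379, 5963 and 6215 in WT HDW libraries. In GCN2KO cells the values were 4946, 5218, 4687, 5494 and 4221 unwounded and 7550.2, 7295, 7397, 7045 and 6557 after HDW. Every HDW library was higher than every unwounded library of its genotype, and every GCN2KO library was higher than every WT library at the same treatment. HDW raised EPHA2 1.59-fold in WT cells (log2 change 0.67, SE 0.043, edgeR adjusted p = 7.65e-09) and 1.47-fold in GCN2KO cells (log2 change 0.56, SE 0.076, edgeR adjusted p = 0.000539). Loss of GCN2 raised it 1.28-fold in unwounded cells (log2 change 0.36, SE 0.076, edgeR adjusted p = 0.000537) and 1.17-fold after HDW (log2 change 0.23, SE 0.045, edgeR adjusted p = 0.000400). The unwounded difference was 0.22 when GCN2KO replicates 1, 2 and 4 were left out and 0.45 when 3 and 5 were. The size of the wound response did not differ detectably between genotypes (difference -0.13 on the log2 scale, 95% interval -0.30 to 0.044, edgeR adjusted p = 0.307), but passed without GCN2KO unwounded replicates 3 and 5 (-0.23, edgeR adjusted p = 0.0252).

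EPHA4, the receptor that accepts ephrins of both classes, fell furthest of the 10 genes. Its normalized read counts were 1638, 1331, 1609, 1379.7 and 1513 in WT unwounded libraries and 1157, 749.6, 883, 1061 and 928 in WT HDW libraries. GCN2KO libraries gave 415, 491, 347, 455 and 374 unwounded and 384, 395, 417, 445 and 494 after HDW. The highest of the 10 GCN2KO values was below the lowest of the 10 WT values, and wounding separated the WT libraries but not the GCN2KO libraries. Unwounded GCN2KO cells held 27.8% of the WT level (log2 change -1.85, SE 0.096, edgeR adjusted p = 1.58e-10), and wounded GCN2KO cells held 44.6% (log2 change -1.17, SE 0.11, edgeR adjusted p = 2.82e-07). HDW lowered EPHA4 to 63.9% in WT cells (log2 change -0.65, SE 0.094, edgeR adjusted p = 3.71e-05), while the change in GCN2KO cells was 0.049 with an SE of 0.11 (edgeR adjusted p = 0.769).

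EPHA1, the founding member of the receptor family and an epithelial gene, had 1260.0, 1153, 1117, 1198 and 1141 normalized read counts in WT unwounded libraries and 1095, 1041, 1062, 1064 and 1039.7 in WT HDW libraries. The GCN2KO values were 550.2, 587, 499, 502 and 426 unwounded and 484, 505, 543, 471 and 675 after HDW. GCN2KO libraries lay far below WT libraries at both treatments, and the highest of them was GCN2KO HDW replicate 5, a library that stood apart over all genes. The GCN2KO level was 43.7% of WT in unwounded cells (log2 change -1.20, SE 0.082, edgeR adjusted p = 3.21e-09) and 50.7% after HDW (log2 change -0.98, SE 0.080, edgeR adjusted p = 9.22e-08). Without GCN2KO HDW replicate 5 the latter was -1.08 and passed the DE threshold. HDW lowered EPHA1 slightly in WT cells, to 90.3% (log2 change -0.15, SE 0.039, edgeR adjusted p = 0.00553), a call lost in a fit of all 20 samples (edgeR adjusted p = 0.161), and the GCN2KO groups overlapped (edgeR adjusted p = 0.622).

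**Figure D3:**
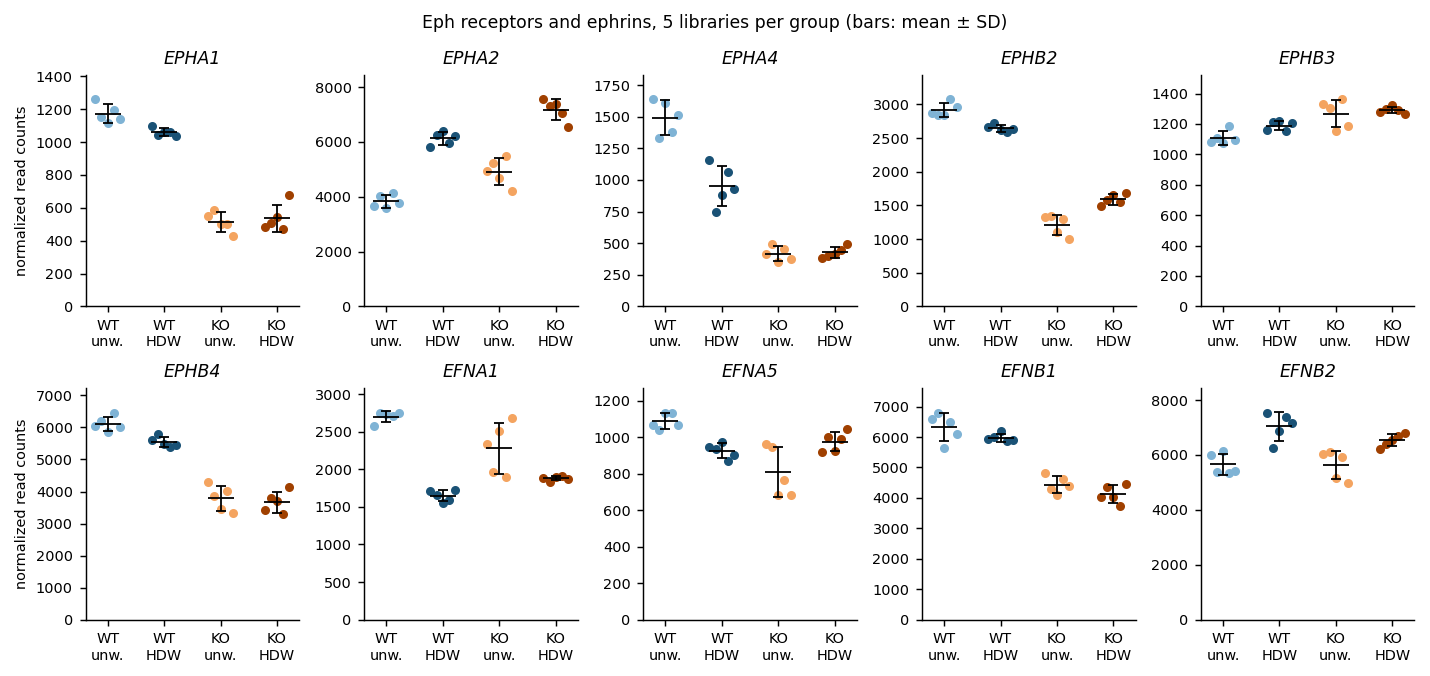
Normalized read counts of each gene in all 20 libraries, with 1 point per library, 5 per group, and bars for mean ± SD. In EPHA1, EPHA4, EPHB2, EPHB4 and EFNB1 every GCN2KO point is below every WT point, and in EFNA1 and EFNA5 the GCN2KO unwounded points are the most widely spread.

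Among the B-class receptors EPHB2, which binds mainly ephrin-B ligands and is known for sorting epithelial cells along the intestinal crypt, showed opposite responses to wounding. EPHB2 gave 2869.7, 2848, 2844, 3075 and 2960.1 normalized read counts in WT unwounded libraries and 2664, 2729, 2615, 2595 and 2642 in WT HDW libraries. It gave 1323, 1343, 1098, 1292 and 998 in GCN2KO unwounded libraries and 1490.4, 1577, 1648, 1545 and 1685 in GCN2KO HDW libraries. The WT values fell and the GCN2KO values rose after HDW, in neither case with overlap, and all GCN2KO libraries stayed under all WT libraries. The WT change was -0.14 (log2; SE 0.032, edgeR adjusted p = 0.00148) and the GCN2KO change was 0.40 (SE 0.086, edgeR adjusted p = 0.00618). The WT call was lost in a fit of all 20 samples (edgeR adjusted p = 0.0863). The GCN2KO rise was 0.28 without unwounded replicates 3 and 5 (edgeR adjusted p = 0.0135) and 0.61 without 1, 2 and 4. The genotype difference was accordingly larger in unwounded cells, at 41.5% of WT (log2 change -1.27, SE 0.082, edgeR adjusted p = 1.64e-09), than after HDW, at 60.0% (log2 change -0.74, SE 0.040, edgeR adjusted p = 2.33e-09).

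EPHB4, best known as the venous partner of ephrin-B2 and the most abundant of the 3 B-class receptors per kilobase in all 4 groups, had normalized read counts of 5853 to 6461 in WT and 3323 to 4288 in GCN2KO cells left unwounded, and 5394 to 5807 and 3298 to 4132 after HDW. Loss of GCN2 lowered it to 62.1% of WT in unwounded cells (log2 change -0.69, SE 0.075, edgeR adjusted p = 6.07e-07) and to 66.2% after HDW (log2 change -0.60, SE 0.055, edgeR adjusted p = 2.94e-07), with no overlap. HDW lowered it to 90.7% in WT cells (edgeR adjusted p = 0.00336), a call lost in a fit of all 20 samples (edgeR adjusted p = 0.102), and the GCN2KO groups overlapped (edgeR adjusted p = 0.807). EPHB3, another ephrin-B receptor of epithelia, varied least of the 10 genes, with group means within 0.22 on the log2 scale. It had normalized read counts of 1074 to 1184 in WT and 1154 to 1362 in GCN2KO cells left unwounded, and 1151 to 1216 and 1267 to 1325 after HDW. It was 1.15-fold higher in GCN2KO than in WT unwounded cells (edgeR adjusted p = 0.0140) with overlapping libraries, and 1.09-fold higher after HDW (edgeR adjusted p = 0.00795) with none. Both calls were lost when no low-count filter was applied (edgeR adjusted p = 0.0644 and 0.146), and that in unwounded cells also without GCN2KO replicates 1, 2 and 4 (edgeR adjusted p = 0.232). Its rise after HDW in WT cells, 0.097 on the log2 scale (edgeR adjusted p = 0.0385), was lost in 13 of 18 alternatives.

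The A-class ephrins fell after wounding of WT cells. EFNA1, the main ligand of EPHA2 and first described as a gene induced by tumor necrosis factor, gave 2569.6, 2743, 2735, 2705 and 2753 normalized read counts in WT unwounded libraries and 1714, 1654, 1558, 1591 and 1719 in WT HDW libraries. Its GCN2KO values were 2342, 1962, 2505, 1899 and 2677 unwounded and 1884, 1837, 1896, 1904 and 1867 after HDW. The 2 WT groups were far apart, the GCN2KO HDW libraries sat close together, and the GCN2KO unwounded libraries spread from the level of GCN2KO HDW to that of WT unwounded. HDW lowered EFNA1 to 60.8% in WT cells (log2 change -0.72, SE 0.035, edgeR adjusted p = 5.46e-10) and to 83.1% in GCN2KO cells (log2 change -0.27, SE 0.087, edgeR adjusted p = 0.0394). The GCN2KO fall was lost in 12 of 21 alternatives: it was -0.13 without unwounded replicates 3 and 5 (edgeR adjusted p = 0.231) and -0.46 without 1, 2 and 4 (edgeR adjusted p = 8.88e-05). In unwounded cells EFNA1 was at 84.6% of WT in GCN2KO cells (log2 change -0.24, SE 0.086, edgeR adjusted p = 0.0209), a call that was lost without GCN2KO replicate 4 (-0.18, edgeR adjusted p = 0.0602) and without 1, 2 and 4 (-0.061, edgeR adjusted p = 0.309), and that was -0.38 without 3 and 5. After HDW the direction was opposite: EFNA1 in GCN2KO cells stood 1.14-fold above WT (log2 change 0.19, SE 0.038, edgeR adjusted p = 0.000508), with no overlap.

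EFNA5, an A-class ephrin known from axon guidance, gave 1067, 1040.3, 1135, 1134 and 1067 normalized read counts in WT unwounded libraries and 946, 935, 975, 868 and 903 in WT HDW libraries. The GCN2KO values were 965, 947, 685, 768 and 684 unwounded and 919, 1001, 925, 989.7 and 1047 after HDW. HDW libraries were all lower than unwounded libraries in WT, while in GCN2KO replicates 1 and 2 of the unwounded group lay among the HDW values. EFNA5 was at 74.3% of WT in unwounded GCN2KO cells (log2 change -0.43, SE 0.097, edgeR adjusted p = 0.00101), which was -0.28 without replicates 3 and 5 and -0.67 without 1, 2 and 4. After HDW the genotypes overlapped (edgeR adjusted p = 0.177). HDW lowered it to 84.8% in WT cells (log2 change -0.24, SE 0.041, edgeR adjusted p = 0.000172). In GCN2KO cells the change of 0.28 (SE 0.10) missed the threshold at an edgeR adjusted p of 0.0587, and was 0.14 (edgeR adjusted p = 0.296) without unwounded replicates 3 and 5 and 0.52 (edgeR adjusted p = 0.000256) without 1, 2 and 4.

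The B-class ephrins, which signal in reverse through their cytoplasmic tails, split by condition. EFNB1, whose gene is mutated in craniofrontonasal syndrome, had normalized read counts of 5631 to 6801 in WT and 4083 to 4804 in GCN2KO cells left unwounded, and 5879 to 6189 and 3723 to 4458 after HDW. It followed genotype: the GCN2KO level was 70.4% of WT in unwounded cells (log2 change -0.51, SE 0.070, edgeR adjusted p = 8.98e-06) and 69.0% after HDW (log2 change -0.54, SE 0.047, edgeR adjusted p = 1.86e-07). The HDW change in EFNB1 was -0.082 in WT cells (edgeR adjusted p = 0.151) and -0.095 in GCN2KO cells (edgeR adjusted p = 0.328), and that in WT cells passed with library size alone (-0.12, edgeR adjusted p = 0.0434) and without WT unwounded replicate 3 (-0.12, edgeR adjusted p = 0.0146).

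EFNB2, the ligand of EPHB4 and EPHB2 among others, gave 5988, 5389, 6145, 5329 and 5428 normalized read counts in WT unwounded libraries and 7539.6, 6239, 6864, 7395 and 7152 in WT HDW libraries. In GCN2KO cells it gave 6029.9, 6094, 5159, 5914 and 4976 unwounded and 6223, 6415, 6539.9, 6702 and 6789 after HDW. HDW libraries were above unwounded libraries in both genotypes, whereas the genotypes overlapped at both treatments. The rise was 1.24-fold in WT cells (log2 change 0.31, SE 0.055, edgeR adjusted p = 0.000197) and 1.17-fold in GCN2KO cells (log2 change 0.22, SE 0.072, edgeR adjusted p = 0.0383), and the latter call was lost in 12 of 21 alternatives, including without GCN2KO unwounded replicates 3 and 5 (0.13, edgeR adjusted p = 0.132). Between genotypes the 95% interval of the difference was -0.15 to 0.15 on the log2 scale in unwounded cells and -0.21 to -0.0082 after HDW, with edgeR adjusted p = 0.990 and 0.0708. The normal interval after HDW left out 0, although the edgeR test gave an unadjusted p of 0.0524. The difference after HDW passed without GCN2KO HDW replicate 5 (-0.12, edgeR adjusted p = 0.0404), without WT HDW replicate 2 (-0.15, edgeR adjusted p = 0.00588) and without a filter (-0.13, edgeR adjusted p = 0.0372), and in no other alternative. Without GCN2KO replicates 1, 2 and 4 the unwounded difference was -0.16 (edgeR adjusted p = 0.0380), and all values for EFNB2 carry the antisense overlap given above.

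The response to HDW differed between genotypes for 4 of the 10 genes, all with a higher GCN2KO than WT response, and for none in the other direction, where 11.2% and 12.5% of 16536 genes tested did so. None differed by the DE fold as well (1.16% and 2.15% of genes). The difference was largest for EPHA4 (0.68 as log2, SE 0.15, edgeR adjusted p = 0.00159) and EPHB2 (0.54, SE 0.091, edgeR adjusted p = 0.000145). EFNA5 differed by 0.51 (SE 0.11, edgeR adjusted p = 0.00182) and EFNA1 by 0.43 (SE 0.099, edgeR adjusted p = 0.00239). All 4 calls held in each of the 30 alternatives, although their sizes moved. EFNA1 was 0.25 without GCN2KO unwounded replicates 1, 2 and 4 and 0.56 without 3 and 5. Over all alternatives the difference ran from 0.50 to 0.88 for EPHA4, 0.39 to 0.74 for EPHB2 and 0.34 to 0.75 for EFNA5. In EPHB2 the genotypes moved in opposite directions, each past the threshold in the fit of its own groups, and in EFNA1 both fell by unequal amounts. For the other 6 genes the 95% intervals of the difference reached from -0.30 for EPHA2 to 0.45 for EPHA1, and every interval held 0. Without GCN2KO unwounded replicates 3 and 5, EPHA2 and EPHB3 also passed, with a lower GCN2KO response (-0.23 and -0.16, edgeR adjusted p = 0.0252 and 0.0449). Without replicates 1, 2 and 4, EPHA1 and EPHB4 passed with a higher one (0.36 and 0.26, edgeR adjusted p = 0.0246 and 0.0176). The part that differentiation markers or the spread of GCN2KO unwounded libraries play in these differences was not tested beyond leaving out the libraries named.

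**Figure D4:**
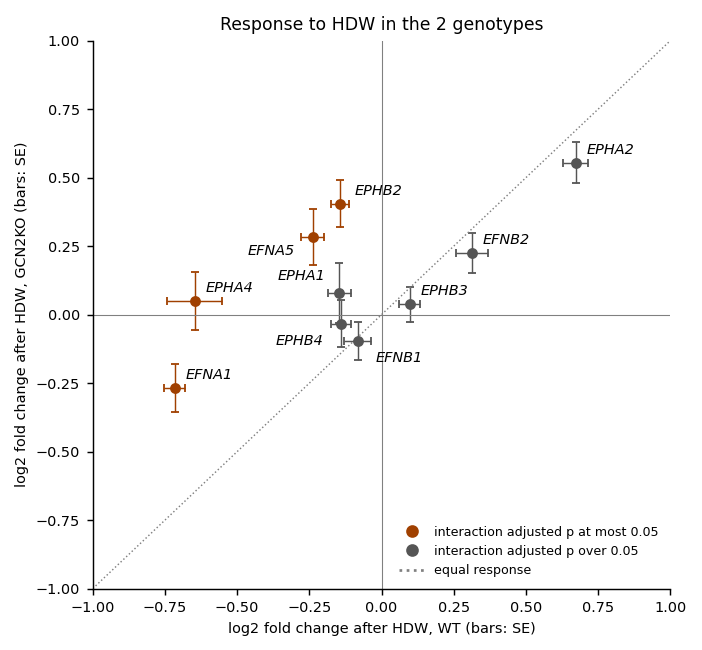
Log2 fold change after HDW in WT cells (horizontal) against that in GCN2KO cells (vertical), 1 point per gene with SE bars, and a dotted line of equal response. EPHB2, EFNA5, EPHA4 and EFNA1, whose interaction passed an edgeR adjusted p of 0.05, lie above the line, and EPHA2 at 0.67 and 0.56 lies near it.

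Receptor and ligand of the EPHA2 and EFNA1 pair changed in opposite directions on wounding of WT cells. In GCN2KO cells EPHA2 rose, while the fall of EFNA1 depended on the libraries included. Of the GCN2KO unwounded libraries, replicates 3 and 5 had the highest EFNA1 (40.2 and 43.0 RPKM) and the lowest EPHA2 (39.3 and 35.4 RPKM). Per library, the RPKM of EPHA2 divided by that of EFNA1 was 0.742 ± 0.046 in WT and 1.16 ± 0.29 in GCN2KO cells left unwounded, and 1.95 ± 0.13 and 1.996 ± 0.109 after HDW (mean ± SD, n = 5). The ratio was under 1 in every WT unwounded library and over 1.7 in every HDW library. GCN2KO unwounded libraries ranged from 0.824 to 1.51, reaching from the WT unwounded range of 0.684 to 0.802 toward the HDW values without overlapping either.

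**Figure D5:**
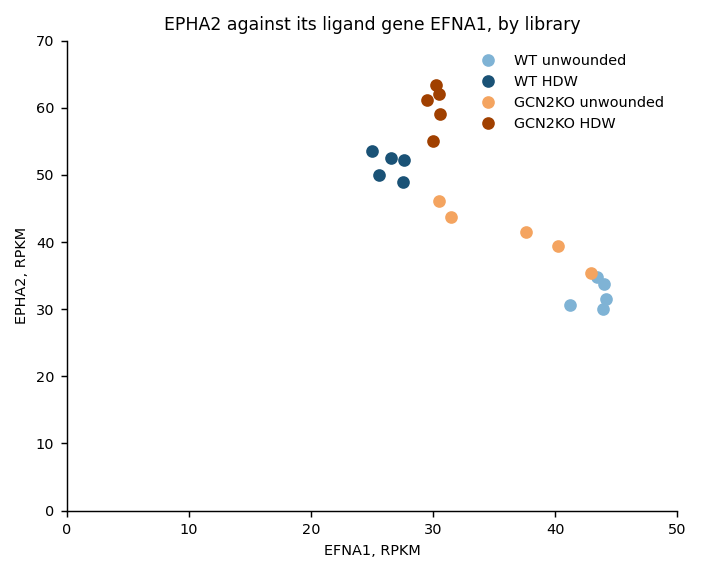
RPKM of EFNA1 (horizontal) and EPHA2 (vertical), 1 point per library and 5 per group. WT unwounded libraries sit at the lower right with a mean ratio of 0.742, both HDW groups at the upper left with 1.95 and 1.996, and GCN2KO unwounded libraries between them.

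The balance among the members of each class shifted as well, as described by RPKM summed over the 10 genes alone. EPHA2 made up 67.4% of the summed A-class receptors in WT and 87.8% in GCN2KO cells left unwounded, and 80.8% and 91.0% after HDW. EPHA4 went from 14.4% to 6.92% in WT cells on wounding and stood at 4.08% and 2.98% in GCN2KO cells. The summed A-class receptors were similar between genotypes, at 47.8 ± 1.6 and 47.0 ± 4.6 RPKM unwounded and at 63.7 ± 1.2 and 66.1 ± 2.6 after HDW for WT and GCN2KO cells. Summed B-class receptors were 49.6 ± 1.8 and 46.5 ± 1.1 RPKM in WT unwounded and HDW cells, and 33.5 ± 3.2 and 34.1 ± 1.9 in GCN2KO cells. The summed A-class ephrins EFNA1 and EFNA5 went from 49.97 ± 1.27 to 32.1 ± 1.2 RPKM in WT cells, and were 41.5 ± 5.1 and 36.1 ± 0.40 in GCN2KO cells. With EFNA2, EFNA3 and EFNA4 added, the A-class ephrin sums were 61.5 ± 0.997 and 41.1 ± 1.91 RPKM in WT and 49.7 ± 5.11 and 43.1 ± 0.387 in GCN2KO cells. For EFNB1 and EFNB2 the sums were 106 ± 4.1 and 112 ± 3.1 RPKM in WT cells and 85.8 ± 5.8 and 88.8 ± 3.5 in GCN2KO cells, and EFNB2 made up 37.2% of them in WT unwounded but 51.2% in GCN2KO HDW cells.

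Of the other 12 genes of the family, 9 had fewer than 30 counts in every library and the other 3, all ephrins, reached 133 to 614 counts. EPHA5, EPHA7, EPHA8, EPHA10, EPHB1 and EFNA2 had fewer than 10 counts in every library, EPHA6 had at most 11 and EPHB6, a receptor without kinase activity, at most 20. EPHA3 had at most 21 counts, in WT unwounded libraries, and was lower in GCN2KO unwounded (log2 change -1.32, SE 0.30, edgeR adjusted p = 0.000978) and in WT HDW cells (log2 change -1.56, SE 0.30, edgeR adjusted p = 0.000523), at a depth where single counts matter. EFNA4, an A-class ephrin, was at 9.51 ± 0.314 RPKM in WT unwounded libraries, above the means of 6.60 to 8.69 RPKM of the lower tier of members but overlapping EPHA1. Wounded WT libraries had 7.40 ± 0.808 RPKM of EFNA4, and GCN2KO libraries 6.64 ± 0.287 before and 5.70 ± 0.461 after HDW (mean ± SD, n = 5). EFNA3 was lower, at 2.04 ± 0.324 RPKM in WT unwounded libraries. EFNB3, the third B-class ephrin, had 6.14 ± 0.328 RPKM there and normalized read counts of 568 ± 30.3 in WT and 51.2 ± 17.4 in GCN2KO cells left unwounded, and 383 ± 37.9 and 47.5 ± 14.8 after HDW. Its GCN2KO level was 8.92% of WT unwounded (log2 change -3.49, SE 0.15, edgeR adjusted p = 1.78e-11) and 12.5% after HDW (log2 change -3.00, SE 0.14, edgeR adjusted p = 8.90e-10). HDW lowered EFNB3 in WT cells (log2 change -0.57, SE 0.068, edgeR adjusted p = 4.89e-06) and EFNA4 too (log2 change -0.36, SE 0.074, edgeR adjusted p = 0.000811). EFNA4 was lower in GCN2KO cells at both treatments (-0.51 unwounded, edgeR adjusted p = 1.45e-05, and -0.37 after HDW, edgeR adjusted p = 0.00133), and EFNA3 in unwounded cells (-0.34, edgeR adjusted p = 0.0484). EFNA3 shares 43.9% and EFNA4 15.04% of exonic bases with a readthrough gene of both, so their counts are uncertain.

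Signaling partners of the family were described by a list of 42 exchange factors, adaptors, kinases, phosphatases, scaffolds and cytoskeletal effectors, of which 39 were tested and NGEF, ARHGEF15 and GRB10 had at most 6 counts in any library. Between genotypes 12 were higher and 12 lower in unwounded GCN2KO cells, and 20 higher and 12 lower after HDW, with medians of -0.09 and 0.14 on the log2 scale. Over all genes tested the shares were 33.4% and 33.1% in unwounded cells and 35.9% and 35.8% after HDW, so that the counts in unwounded cells were near those shares. After HDW 6 rose and 13 fell in WT cells, where 26.1% and 25.2% of all genes did, and 6 rose and 3 fell in GCN2KO cells, where 11.9% and 10.8% did. For 8 partners the HDW response of GCN2KO cells exceeded that of WT cells, and for 2 it was the lower, beside 11.2% and 12.5% of all genes.

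The 3 largest genotype differences among partners at each treatment were in regulators of small GTPases and G proteins. ARHGEF19, a guanine nucleotide exchange factor, had normalized read counts of 404 ± 16.2 in WT and 126 ± 21.0 in GCN2KO cells left unwounded, and 255 ± 13.1 and 92.2 ± 21.8 after HDW (mean ± SD, n = 5). It was lower in GCN2KO cells unwounded (log2 change -1.68, SE 0.10, edgeR adjusted p = 9.35e-10) and after HDW (log2 change -1.48, SE 0.13, edgeR adjusted p = 1.47e-07), and an antisense gene covers 11.6% of its exonic bases. ARHGEF19 lies at chr1:16197854-16212652 on the minus strand, beyond the start of EPHA2, which moved the opposite way. RGS3, a G protein regulator that binds B-class ephrin tails, had 573 ± 80.6 in WT and 1799.7 ± 31.9 in GCN2KO cells left unwounded, and 848 ± 137 and 1403 ± 135 after HDW. It was 3.15-fold higher in GCN2KO unwounded cells (log2 change 1.66, SE 0.082, edgeR adjusted p = 9.84e-11) and 1.66-fold after HDW (log2 change 0.73, SE 0.098, edgeR adjusted p = 1.23e-05), and its response to HDW differed between genotypes (-0.93, SE 0.13, edgeR adjusted p = 1.98e-05). KALRN, the exchange factor kalirin that acts downstream of EPHB receptors in neurons, was low at 27.1 ± 11.6 in WT unwounded libraries and 110.1 ± 8.67 in GCN2KO HDW libraries, and rose with loss of GCN2 (1.46 and 1.10, edgeR adjusted p = 1.42e-05 and 2.63e-06) and with HDW (1.02 in WT and 0.66 in GCN2KO cells, edgeR adjusted p = 0.00117 and 0.00276).

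Wounding moved a further set of partners. ARHGEF16, an exchange factor that binds EPHA2, fell from 1319 ± 135 to 669.7 ± 78.1 normalized read counts in WT cells (log2 change -0.98, SE 0.079, edgeR adjusted p = 8.46e-08), and was 1209 ± 45.6 and 1074 ± 58.2 in GCN2KO unwounded and HDW libraries, a response that differed between genotypes (0.81, SE 0.10, edgeR adjusted p = 4.95e-06). GRIP1, a PDZ scaffold for B-class ephrins, fell in WT cells (log2 change -0.87, SE 0.085, edgeR adjusted p = 6.53e-07), also with a genotype difference (0.58, SE 0.17, edgeR adjusted p = 0.0164). GRIP1 was lower in GCN2KO than in WT cells, both unwounded (log2 change -1.26, SE 0.12, edgeR adjusted p = 1.83e-07) and after HDW (log2 change -0.69, SE 0.11, edgeR adjusted p = 8.56e-05). In GCN2KO cells ABL2, a kinase that acts on the actin cytoskeleton, rose from 962 ± 216 to 1746 ± 189 (log2 change 0.87, SE 0.13, edgeR adjusted p = 0.000894), and TIAM1, a Rac exchange factor, rose from 352 ± 66.3 to 534 ± 15.2 (log2 change 0.62, SE 0.11, edgeR adjusted p = 0.00265). ABL2 rose in WT cells as well, from 975 ± 53.0 to 1314 ± 72.9 (log2 change 0.43, SE 0.048, edgeR adjusted p = 2.54e-06). Its rise in GCN2KO cells was the larger (difference 0.43, SE 0.15, edgeR adjusted p = 0.0339). That rise started from GCN2KO unwounded libraries spread from 774 to 1228, and the difference is given with all libraries only. TIAM1 did not pass in WT cells (log2 change 0.094, edgeR adjusted p = 0.283). Against WT, TIAM1 was lower in unwounded GCN2KO cells (log2 change -0.35, SE 0.11, edgeR adjusted p = 0.0129). After HDW it was slightly higher (log2 change 0.16, SE 0.064, edgeR adjusted p = 0.0350). Its response to HDW differed between genotypes (0.51, SE 0.13, edgeR adjusted p = 0.00664).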

How the data were processed

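Total RNA of 20 NTERT libraries in 4 groups of 5 was analysed. The authors trimmed reads with Trimmomatic, aligned them to GRCh38 with STAR and deposited raw counts of uniquely mapped exonic reads per gene from featureCounts, 1 file per library. Strandedness and annotation release are not given in the sources used here. Identifiers were matched to GENCODE 44 (56410 of 57500).

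Each pair of groups, and the interaction over all 20 libraries, was tested with the quasi-likelihood test of edgeR 4.0.16 (R 4.3.3) over all genes kept by filterByExpr (minimum count 10, minimum total 15), with TMM normalization and Benjamini-Hochberg adjustment over all genes tested. A gene passed at an adjusted p of at most 0.05, and counted as a DE gene if it also changed 1 or more on the log2 scale. The code was tested on simulated counts. Intervals are normal 95% intervals of the estimate and are narrower than the edgeR test implies. Levels between genes are RPKM over merged exons.

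All 10 members, EIF2AK4 and the family list were named, with the 3 partners of largest fold change among those passing in each comparison and the 3 genes most like each of the 3 members of widest span, of which 1 for EPHA4 is not reported here. The members and lists were chosen with earlier results of these data known. Alternatives were DESeq2 1.42.0, its size factors, unscaled libraries (library size alone), keeping every gene, requiring 50 counts on average, counts thinned to the smallest library, all 20 samples in one fit, a replicate block and each library left out. Leaving out GCN2KO unwounded replicates 3 and 5, or 1, 2 and 4, or 3 and 5 with GCN2KO HDW replicate 5, was added after the data were seen.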

Additional observations from a re-analysis of the deposited data

Results flagged for a closer look

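The response to HDW differed between GCN2KO and WT cells in the test of the difference itself for EPHB2 (0.54 on the log2 scale), EFNA1 (0.43), EPHA4 (0.68) and EFNA5 (0.51), each as the GCN2KO minus the WT response. In WT unwounded cells 1 library lay apart from its group for EFNA1: replicate 1, with 2569.6 normalized read counts, was lower than the other 4, which lay between 2705 and 2753. This was the only one of 40 gene and group combinations to pass Dixon's test, which chance flags in about 1 of 20 groups.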

How the results depend on the processing

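Most calls did not change. Among counts of members, without GCN2KO unwounded replicates 1, 2 and 4, or without a filter, 1 member was higher in unwounded GCN2KO cells in place of 2. Without a filter 2 members in place of 1 were DE genes lower in wounded GCN2KO cells, and leaving out each library in turn gave 1 to 2. A fit of all 20 samples gave 3 members in place of 6 that fell after HDW in WT cells, without EPHA1, EPHB2 and EPHB4. EFNA1, the only member that fell after HDW in GCN2KO cells, was lost (0 members) with thinned counts, with the replicate block, without unwounded replicates 3 and 5, and without these and HDW replicate 5, and leaving out each library in turn gave 0 to 1. In the interaction, 2 members (EPHA2 and EPHB3) showed a lower GCN2KO response without unwounded replicates 3 and 5, in place of 0, and 6 a higher one without 1, 2 and 4, in place of 4. The cause of these shifts was not tested.

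Directions that changed were those of differences under the threshold. For EFNB2 in unwounded GCN2KO against WT cells the log2 fold change of -0.0013 became 0.0056 with DESeq2, 0.0066 with its size factors, 0.0017 with a mean of at least 50 counts, 0.0025 with thinned counts, 0.097 without replicates 3 and 5, and -0.034 to 0.044 with each library left out. For HDW in GCN2KO cells, EPHA4 became -0.052 with thinned counts, and EPHA4, EPHB3 and EPHA1 became -0.081, -0.039 and -0.014 without unwounded replicates 3 and 5, and -0.15, -0.039 and -0.12 without HDW replicate 5 as well. EPHB4 became 0.12 without unwounded replicates 1, 2 and 4. With each library left out, these ran from -0.021 to 0.11 for EPHA4, -0.0055 to 0.067 for EPHB3, -0.018 to 0.13 for EPHA1 and -0.081 to 0.015 for EPHB4. In the interaction, EPHA2, EPHB3, EFNB1 and EFNB2 became 0.014, 0.043, 0.043 and 0.053 without unwounded replicates 1, 2 and 4, EFNB1 became 0.039 with library size alone and ran from -0.055 to 0.012 with each library left out, and EPHB4 became -0.020 without unwounded replicates 3 and 5 and -0.048 without HDW replicate 5 as well.

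Replicate numbers recur in all groups but did not pair the libraries: deviations of same-numbered libraries correlated at -0.477 to 0.210, over 0.1 in 3 of 20 pairs, and at most 3 of 10 libraries in a comparison correlated best with their own number. With the replicate block, genes called after HDW in GCN2KO cells went from 1880 higher and 1706 lower to 1239 and 882, and members from 3 and 1 to 2 and 0. Members that rose after HDW in WT cells went from 3 to 2, and no other count of members changed. Members had 266 to 9053 counts in a library, a counting error of 1.05% to 6.13%. The SD between libraries was at or under the counting error in 4 of 40 gene and group combinations, EPHA1 and EPHB3 in WT HDW and EPHB3 and EFNA1 in GCN2KO HDW, and above it in the others.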

Other observations

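For the 3 members of widest span, the genes whose log2 CPM followed them most closely over the 20 libraries, of 16536 genes, were named as a description, since the libraries fall into 4 groups and share scaling. The genes closest to EPHA4 included COL4A5, a type IV collagen chain of basement membranes, with a Pearson r of 0.989, and TFDP2, a partner of E2F factors, with 0.984. COL4A5 averaged 233 CPM in WT and 69.3 CPM in GCN2KO cells left unwounded, and 165 and 72.8 CPM after HDW. EPHB2 was closest to MAPKBP1 (0.989), SUSD6 (0.989) and KIAA0930 (0.988). EPHA1 was closest to SMO, the signal transducer of the Hedgehog pathway (0.991), BMP1, a protease that processes procollagen (0.989), and SMARCC2, a chromatin remodeling subunit (0.989). SMO averaged 29.8 and 26.9 CPM in WT unwounded and HDW libraries and 10.2 and 10.1 CPM in the GCN2KO groups.

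Genes within 5 Mb of a member did not share its difference between GCN2KO and WT cells in general. Their median log2 fold change lay between -0.22 and 0.06 for 9 of the members at both treatments. The neighbors of EFNA5 lay outside that range, a case chosen after these values were seen. Its 21 neighbors tested had a median of 0.51 in unwounded cells and 0.61 after HDW. EFNA5 itself was at -0.43 and 0.08, so it did not share the shift of its neighbors.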
